A study of Rattus norvegicus with 11 samples.

Results

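The endocannabinoid enzymes and receptors were followed as 10 genes, Mgll, Faah, Abhd6, Abhd12, Dagla, Daglb, Napepld, Naaa, Cnr2 and Gpr55, chosen by name for their roles in making, breaking down or sensing these lipids. All 10 were found by their symbols among 24481 genes with read counts and among 24205 genes with FPKM, which is fragments scaled by transcript length and library depth, and all 10 had enough reads to be tested in every comparison. Endocannabinoids are lipid messengers that cells make on demand from membrane phospholipids and remove again by hydrolysis. The best known are 2-arachidonoylglycerol (2-AG), made by diacylglycerol lipases and hydrolyzed mainly by monoacylglycerol lipase (MAGL), and anandamide, an N-acylethanolamine. In the gut they act through the receptors CB1, mostly on enteric neurons, and CB2, mostly on immune cells, and the system is known for effects on motility, secretion, inflammation and barrier function.

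The study asked how inhibition of MAGL acts on the intestine in severe acute pancreatitis (SAP). Total RNA was taken from ileum of male SD rats of 6 to 8 weeks in a control group (3 libraries), an SAP group (4 libraries) and a JZL184 group (4 libraries), and sequenced as stranded mRNA libraries. SAP was produced by injecting 3% sodium taurocholate into the pancreatic duct, and 24 h after surgery the JZL184 group, which also had SAP, received JZL184, a selective MAGL inhibitor, intraperitoneally at 10 mg/kg. Control and SAP rats received vehicle, and all rats were killed 24 h after the injection. By the treatment protocol all 3 groups were formed from rats that had undergone surgery, and the operation of the control rats is not described further. The sample labels name a control plasmid for the controls and carry oil in the titles of the SAP libraries, and they call the material intestinal epithelial cells although the source is given as ileum tissue. Markers of smooth muscle were abundant next to those of epithelium, with summed FPKM of 381 to 2132 and 5210 to 20196, so the libraries were read as whole tissue, in which fewer cells of a type and less RNA per cell cannot be told apart.

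Between 26341299 and 33847135 reads per library lay on genes. Several libraries stood apart from the rest. Control libraries 1 and 2 had a chi-square of 2.81 per gene, against 77.5 to 563 in the other pairs within a group, so they were counted as 1 sample and the controls had n = 2. SAP library 2 had 20 reads on 3 Y-linked genes against 1222 to 4665 in the other libraries, although the study used male rats. Genes that mark position along the gut, picked after their values were seen, set JZL184 libraries 1 and 3 apart. Fabp6, the ileal bile acid binding protein, was at 410 FPKM in JZL184 library 1 and at 79.9 in JZL184 library 3, against 3079 to 21819 in the other 9 libraries. JZL184 library 1 had the highest Gata4, a factor of the proximal small intestine, at 7.73 FPKM, followed by SAP library 2 at 3.65 FPKM, and no other library was above 0.34. JZL184 library 3 alone had Hoxd10, a posterior Hox gene, at 4.49 FPKM against at most 0.07 elsewhere, and the highest Car1, an abundant carbonic anhydrase of the colon, at 478 FPKM. JZL184 library 2 followed with 24.5 FPKM of Car1, and the remaining libraries had at most 0.79. Both libraries thus went against the ileal label in opposite directions, and several results below are also given without 1 or both of them.

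**Figure D1:**
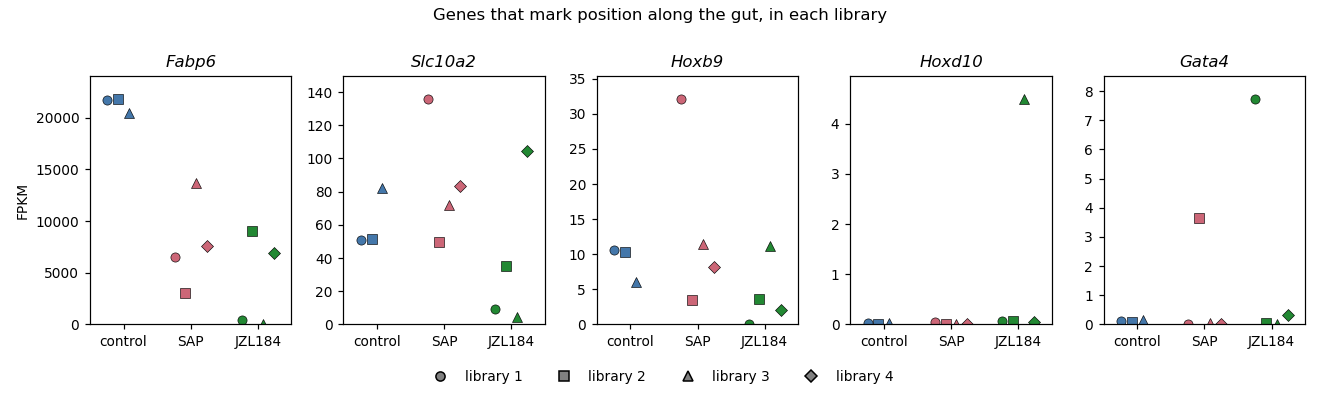
FPKM (vertical axis, linear, a separate scale for each panel) of 5 genes that mark position along the gut, 1 point per library, with shape giving the library number and color the group. JZL184 libraries 1 and 3 lie near 0 for Fabp6, while Gata4 is high in JZL184 library 1 and SAP library 2 and Hoxd10 in JZL184 library 3 alone.

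The transcripts of the 10 genes differed widely in level, with mean FPKM in the control group 295 times as high for Abhd12 as for Cnr2. In FPKM, which is per length and so can be compared between genes, the control group had Abhd12 at 88.6 ± 24.5 (SD, n = 2), Abhd6 at 32.6 ± 3.40 and Mgll at 5.04 ± 1.11. Naaa at 7.07 ± 1.42 and Faah at 6.68 ± 1.65 were close to Mgll, followed by Daglb at 2.48 ± 0.410 and Gpr55 at 2.05 ± 0.0212. Dagla at 0.383 ± 0.0955, Napepld at 0.303 ± 0.110 and Cnr2 at 0.30 ± 0.0424 were lowest. In the control group Abhd12, Abhd6, Daglb and Gpr55 were each apart from their neighbours in this order, while Naaa, Faah and Mgll overlapped, as did Dagla, Napepld and Cnr2. The order began with Abhd12 and Abhd6 in the SAP group too, but in the JZL184 group every gene overlapped its neighbour. The reads behind these levels ranged per library from 1488 to 8673 for Abhd12 down to 24 to 91 for Cnr2, 27 to 219 for Napepld and 11 to 650 for Gpr55.

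**Figure D2:**
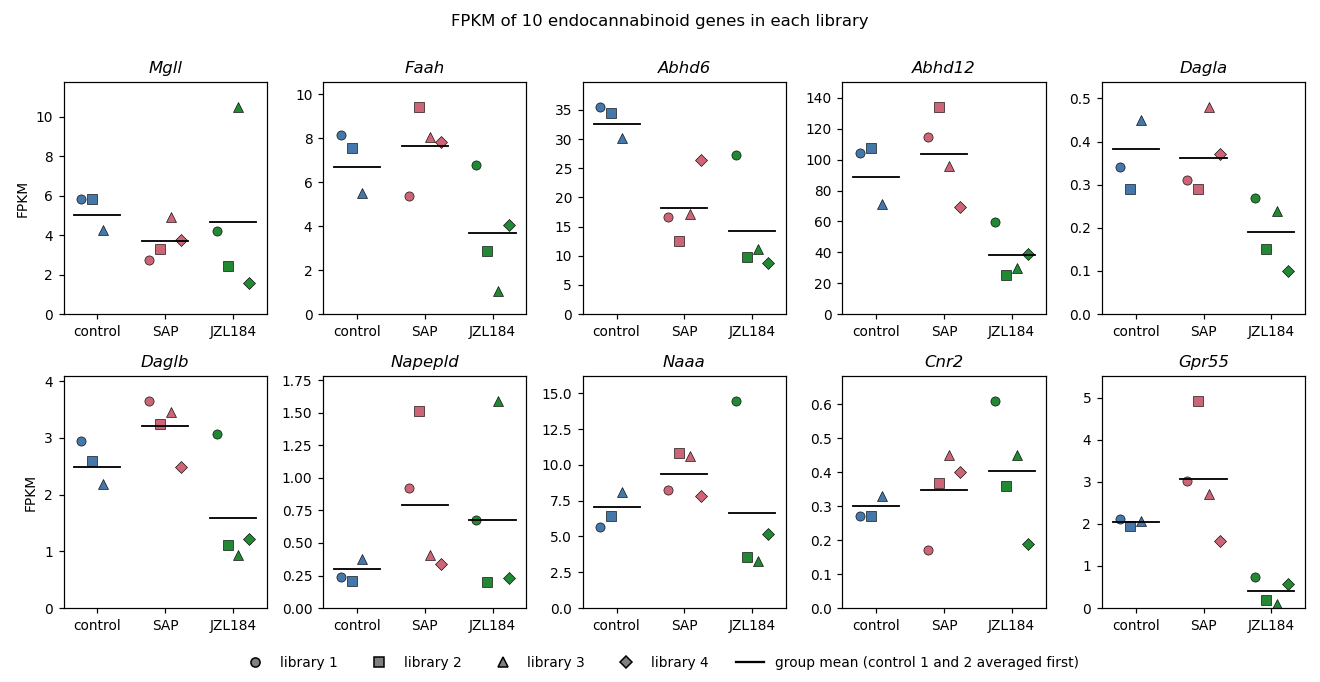
FPKM (vertical axis, linear, a separate scale for each gene) of the 10 genes in every library, with shape giving the library number, color the group and the line the group mean, for which control libraries 1 and 2 were averaged first. All 4 JZL184 libraries lie below all control and SAP libraries for Abhd12 and Gpr55, and JZL184 library 3 stands alone at the top for Mgll.

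Mgll encodes MAGL, the target of JZL184. Its FPKM was 5.83, 5.82 and 4.26 in the control libraries, 2.74, 3.31, 4.93 and 3.75 in the SAP libraries, and 4.19, 2.42, 10.5 and 1.56 in the JZL184 libraries. The groups overlapped in all 3 comparisons, and the JZL184 group held both the highest and the lowest library. The log2 fold change by edgeR was -0.62 (SE 0.36, adjusted p = 0.462) in SAP against control, 0.44 (SE 0.51, adjusted p = 0.625) in JZL184 against SAP and -0.21 (SE 0.63, adjusted p = 0.855) in JZL184 against control. The direction against SAP rested on JZL184 library 3, since the log2 fold change was -0.28 without it and -0.63 without JZL184 libraries 1 and 3. Against control it was -1.28 without those 2 libraries, with an adjusted p of 0.0271 by edgeR, in a fit that left 2 JZL184 and 2 control samples. JZL184 acts on the enzyme, and the activity of MAGL was not measured by these libraries.

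Abhd6 encodes a membrane hydrolase of 2-AG. It was at 35.5, 34.4 and 30.2 FPKM in the control libraries, at 16.7, 12.5, 17.1 and 26.4 in the SAP libraries, and at 27.3, 9.79, 11.2 and 8.73 in the JZL184 libraries. All control libraries were above all others, and JZL184 library 1 and SAP library 4 were the highest of their groups. The log2 fold change was -0.99 (SE 0.38, adjusted p = 0.459) in SAP against control and -1.26 (SE 0.43, adjusted p = 0.119) in JZL184 against control by edgeR, so neither passed the test. In JZL184 against SAP it was -0.25 (SE 0.40, adjusted p = 0.728), and 0.06 without SAP library 4. Without JZL184 libraries 1 and 3 the change against control was -1.75 and passed, with an adjusted p of 0.00264 by edgeR.

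Abhd12, which encodes a hydrolase that acts on 2-AG and on lysophosphatidylserine, was the most abundant of the 10 transcripts. The control libraries had 105, 107 and 71.2 FPKM, the SAP libraries 115, 134, 95.6 and 69.2, and the JZL184 libraries 59.5, 25.3, 29.6 and 39.1. Control and SAP overlapped, and every JZL184 library was below every library of both other groups. The group means of Abhd12 were 103 ± 27.7 FPKM (SD, n = 4) for SAP and 38.4 ± 15.2 FPKM for JZL184. The log2 fold change by edgeR was 0.02 (SE 0.33, adjusted p = 0.977) in SAP against control, -1.27 (SE 0.29, adjusted p = 0.0895) in JZL184 against SAP and -1.27 (SE 0.36, adjusted p = 0.0867) in JZL184 against control. Both comparisons with JZL184 missed the threshold in edgeR but passed it with DESeq2 (adjusted p of 0.00551 and 0.0263) and with limma-voom (0.0342 and 0.0208). Without JZL184 libraries 1 and 3 the log2 fold change was -1.42 against SAP (adjusted p = 0.0991) and -1.42 against control (adjusted p = 0.0140) by edgeR. The latter fit, added after the data were seen, called 19.4% of all genes. Annotated lncRNA genes overlap Abhd12 and Gpr55 in GRCr8, and no source used here states if reads were counted by strand.

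The summed FPKM of the 3 hydrolase genes was 106 to 148 in the control libraries, 99.3 to 150 in the SAP libraries and 37.5 to 91.0 in the JZL184 libraries, so all JZL184 libraries were below the others. Mgll made up 4.0%, 3.94% and 4.03% of this sum in the control libraries and 2.04%, 2.21%, 4.19% and 3.78% in the SAP libraries. In the JZL184 libraries its share was 4.6%, 6.45%, 20.5% and 3.16%, with library 3 far above the rest. Abhd12 made up most of the sum in every library, from 57.7% to 89.5%. These are shares of transcript, and say nothing of the share of 2-AG that each enzyme hydrolyzes.

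**Figure D3:**
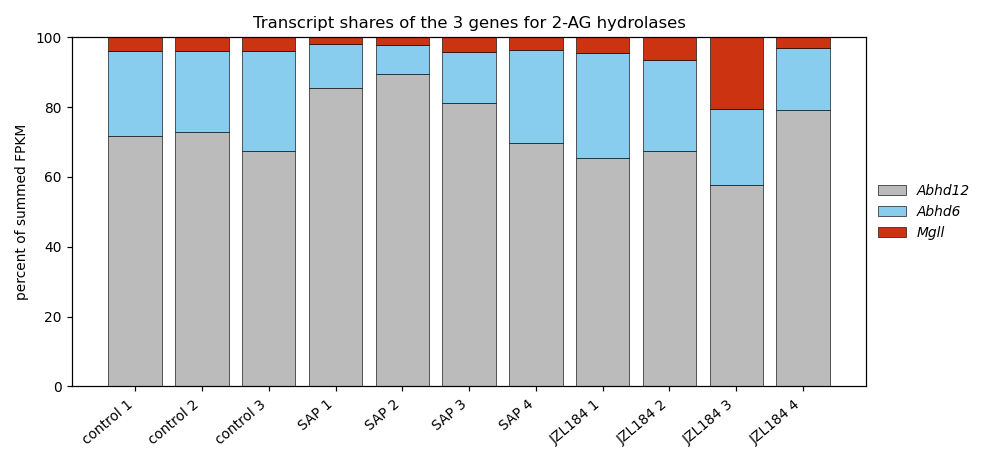
Shares of Abhd12, Abhd6 and Mgll (percent of their summed FPKM, vertical axis from 0 to the whole) in each of the 11 libraries, stacked. Abhd12 is the largest share everywhere, and Mgll stays between 2.04% and 6.45% except in JZL184 library 3, where it reaches 20.5%.

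Dagla and Daglb encode the diacylglycerol lipases that make 2-AG. Daglb was the more abundant, at 2.95, 2.59 and 2.19 FPKM in control, 3.65, 3.25, 3.46 and 2.49 in SAP, and 3.07, 1.11, 0.93 and 1.21 in JZL184. JZL184 library 1 lay among the SAP libraries, and the other 3 were below every library of both groups. Dagla was at 0.29 to 0.45 FPKM in the control libraries, 0.29 to 0.48 in SAP and 0.10 to 0.27 in JZL184, with every JZL184 library below every control and SAP library in FPKM, although normalized counts of JZL184 and SAP overlapped. Against SAP the log2 fold change in the JZL184 group was -0.87 (SE 0.37, adjusted p = 0.213) for Daglb and -0.82 (SE 0.36, adjusted p = 0.230) for Dagla by edgeR. Without JZL184 library 1, Daglb was at -1.33 and passed, with an adjusted p of 0.0388 by edgeR, while without JZL184 libraries 1 and 3 it was at -1.21 (adjusted p = 0.107). Against control Dagla was at -1.06 (SE 0.40, adjusted p = 0.149) and Daglb at -0.71 (SE 0.47, adjusted p = 0.360) in the JZL184 group, while SAP against control gave -0.21 (SE 0.37, adjusted p = 0.765) and 0.19 (SE 0.30, adjusted p = 0.746). Dagla is the longest of the 10, at 17.4 kb by the ratio of reads to FPKM, against at most 5.45 kb for the others. The control libraries had 143 to 229 reads for Dagla, 29 to 53 for Napepld and 34 to 46 for Cnr2. In reads Dagla was thus above Napepld and Cnr2, which it overlapped in FPKM. It was still below Gpr55, at 240 to 264 reads, and Daglb, at 351 to 430 reads. Its overlap with Napepld and Cnr2 in FPKM, and part of its distance to Daglb, thus rest on this length.

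Napepld encodes the phospholipase D that releases anandamide and other N-acylethanolamines. It was low in the control libraries, at 0.24, 0.21 and 0.38 FPKM, and reached 0.92, 1.51, 0.41 and 0.34 in SAP and 0.68, 0.20, 1.59 and 0.23 in JZL184. SAP libraries 1 and 2 and JZL184 libraries 1 and 3 were clearly above all controls, and the others were at or close to the control range. The log2 fold change was 1.2 (SE 0.63, adjusted p = 0.459) in SAP against control, -0.08 (SE 0.66, adjusted p = 0.951) in JZL184 against SAP and 1.08 (SE 0.80, adjusted p = 0.417) in JZL184 against control by edgeR. Without JZL184 libraries 1 and 3 it was -1.58 (adjusted p = 0.232) against SAP and -0.40 against control.

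Faah and Naaa encode the amidases that hydrolyze N-acylethanolamines, at neutral to alkaline pH on membranes and at acidic pH in lysosomes. Faah was at 8.12, 7.57 and 5.51 FPKM in control, 5.35, 9.41, 8.07 and 7.80 in SAP, and 6.79, 2.88, 1.05 and 4.03 in JZL184. Naaa was at 5.69, 6.44 and 8.07 FPKM in control, 8.24, 10.8, 10.6 and 7.84 in SAP, and 14.5, 3.56, 3.29 and 5.18 in JZL184. For both genes JZL184 libraries 2, 3 and 4 were below every other library, while library 1 lay among the controls for Faah and above all libraries for Naaa. Against SAP the log2 fold change in JZL184 by edgeR was -0.91 (SE 0.47, adjusted p = 0.285) for Faah and -0.37 (SE 0.44, adjusted p = 0.626) for Naaa, and without JZL184 library 1 it was -1.29 and -1.0, still short of the threshold. In SAP against control it was 0.02 (SE 0.35) for Faah and 0.24 (SE 0.30) for Naaa, with adjusted p of 0.977 and 0.679, and in JZL184 against control -0.91 (SE 0.58) and -0.16 (SE 0.56), with adjusted p of 0.346 and 0.882.

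Cnr2 encodes CB2. Its level was 0.27 to 0.33 FPKM in the control libraries, 0.17 to 0.45 in SAP and 0.19 to 0.61 in JZL184, and the groups overlapped. The log2 fold change was 0.05 (SE 0.50) in SAP against control, 0.33 (SE 0.46) in JZL184 against SAP and 0.37 (SE 0.50) in JZL184 against control, with adjusted p of 0.958, 0.682 and 0.669 by edgeR. With 24 to 91 reads per library, standard errors of about this size leave changes near 2-fold in either direction undetectable. Cnr1, which encodes CB1 and is not among the 10 genes, had 1 to 66 reads per library, most of them in SAP libraries 1 (66 reads) and 2 (41 reads). Its log2 fold change was 2.33 (SE 0.94, adjusted p = 0.459) in SAP against control, -1.11 (adjusted p = 0.387) in JZL184 against SAP and 1.18 (adjusted p = 0.429) in JZL184 against control by edgeR. In SAP against control Cnr1 was called in 1 of 17 alternatives, DESeq2 with control libraries 1 and 2 separate (adjusted p = 0.0423).

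Gpr55, a receptor for lysophosphatidylinositol that also responds to some cannabinoids, had the largest difference of the 10 genes. It was at 2.12, 1.94 and 2.06 FPKM in control, 3.02, 4.92, 2.70 and 1.59 in SAP, and 0.75, 0.18, 0.09 and 0.57 in JZL184. SAP and control overlapped, and the highest JZL184 library was below the lowest library of either group. The reads behind the 4 JZL184 values were 103, 21, 11 and 66, against 210 to 650 in the SAP libraries, and the exact Poisson 95% interval of the lowest was 5.49 to 19.7, which covers counting error only. The group means of Gpr55 were 3.06 ± 1.38 FPKM (SD, n = 4) for SAP and 0.398 ± 0.314 FPKM for JZL184, and the fitted level in JZL184 was 0.147 of that in SAP. The log2 fold change by edgeR was 0.38 (SE 0.42, adjusted p = 0.638) in SAP against control, -2.77 (SE 0.61, adjusted p = 0.0855) in JZL184 against SAP and -2.42 (SE 0.69, adjusted p = 0.0871) in JZL184 against control. As for Abhd12, both comparisons with JZL184 missed the threshold in edgeR and passed it with DESeq2 (adjusted p of 0.000350 and 0.00534) and limma-voom (0.0318 and 0.0151). Without JZL184 libraries 1 and 3 the log2 fold change was -2.79 (adjusted p = 0.0953) against SAP and -2.42 (adjusted p = 0.00483) against control by edgeR. The latter fit, added after the data were seen, called 19.4% of all genes.

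The promoters of Abhd12 and Gpr55 are shown because every JZL184 library was below both other groups for these genes in FPKM and in normalized counts, and because they differ in content of CG dinucleotides, which mark CpG-island promoters. They are 300 bases from RefSeq on GRCr8, 250 before and 50 after the start, read 5′ to 3′ on the strand of the gene with CG in capitals, whereas the reads had been aligned to mRatBN7.2.
Abhd12, chr3:160179880-160180179, minus strand: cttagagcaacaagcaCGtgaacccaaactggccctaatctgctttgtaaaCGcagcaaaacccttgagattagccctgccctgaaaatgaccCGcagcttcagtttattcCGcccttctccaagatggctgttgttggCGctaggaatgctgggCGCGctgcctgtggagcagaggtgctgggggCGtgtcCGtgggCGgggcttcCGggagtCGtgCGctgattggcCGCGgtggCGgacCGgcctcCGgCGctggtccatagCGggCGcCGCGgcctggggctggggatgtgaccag
Gpr55, chr9:94060708-94061007, minus strand: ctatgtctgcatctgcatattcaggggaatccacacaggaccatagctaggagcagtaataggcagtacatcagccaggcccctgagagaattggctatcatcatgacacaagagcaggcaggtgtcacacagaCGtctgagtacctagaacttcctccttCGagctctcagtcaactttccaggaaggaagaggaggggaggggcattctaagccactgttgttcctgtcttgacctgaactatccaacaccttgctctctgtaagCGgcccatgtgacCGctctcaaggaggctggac
Abhd12 holds 23 CG and an observed to expected ratio of 0.781, and Gpr55 holds 4 and a ratio of 0.197. The ratio was at least 0.6 in 34.4% of 33469 promoters, and their median was 0.392. Promoters were found for 9 of the 10 genes, and those of Abhd6 (0.906), Mgll (0.894), Faah (0.880), Napepld (0.848) and Daglb (0.809) were above 0.6 as well. Naaa (0.553) and the 3 annotated starts of Cnr2 (0.0509, 0.476 and 0.490) were below. The 2 genes with the clearest drop thus lie on opposite sides of 0.6, and these letters say nothing of which factors bind.

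The 10 genes were also counted together, beside all genes tested. In SAP against control, 7 were higher and 3 lower, with a median log2 fold change of 0.04 against 0.06 over all 16029 genes tested, of which 46.8% were lower. The median stands between members that go both ways, from -0.99 for Abhd6 to 1.2 for Napepld. By edgeR 0 of the 10 were called, where a call needs an adjusted p under 0.05 and a level that is more than 2 times or less than 0.5 times that of the other group, and 0% of all genes were called. At an unadjusted p below 0.05 stood 1 of 10, against 9.09% of all genes. Only Abhd6 had groups that did not overlap, and it was lower, as were 11.9% of all genes, while 11.3% were higher without overlap and none of the 10 was. DESeq2 and limma-voom called 0 of the 10 too, with 1.14% and 0.0873% of genes called. With control libraries 1 and 2 taken as separate samples, DESeq2 called 8.91% of genes and 1 of the 10, which was Abhd6 (adjusted p = 0.0427).

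In JZL184 against SAP, 2 of the 10 were higher and 8 lower, with a median of -0.60 against -0.05 over all 15308 genes tested, of which 52.6% were lower. Again edgeR called 0 of the 10 and 0% of all genes. At an unadjusted p below 0.05 stood 4 of 10, Abhd12, Dagla, Daglb and Gpr55, against 21.3% of all genes. Abhd12 and Gpr55 were lower without overlap, as were 5.59% of all genes, while 6.23% were higher without overlap and none of the 10 was. DESeq2 called 2 of the 10 and 6.98% of genes, limma-voom 2 and 4.57%, and in both these were Abhd12 and Gpr55. With all 3 groups in 1 edgeR fit, 1.25% of genes were called and 1 of the 10, Gpr55 (adjusted p = 0.0498). Without JZL184 library 1, 4.21% of genes and 3 of the 10 were called, Abhd12, Daglb and Gpr55, and without JZL184 libraries 1 and 3, 0.0437% and 0.

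In JZL184 against control, 2 were higher and 8 lower, with a median of -0.81 against 0.08 over all 15916 genes tested, of which 46.0% were lower. This comparison shares its libraries with the others, so its values are no independent repeat. Here too edgeR called 0 of the 10, while 2.16% of all genes were called. At an unadjusted p below 0.05 stood 4 of 10, Abhd6, Abhd12, Dagla and Gpr55, against 26.3% of all genes. The same 4 were lower without overlap, as were 19.3% of all genes, while 18.9% were higher without overlap and none of the 10 was. DESeq2 called 2 of the 10 and 11.7% of genes, and limma-voom 4 and 18.3%. With the control libraries separate, edgeR called 3 of the 10, Abhd6, Abhd12 and Gpr55, and 18.1% of genes. Without JZL184 library 1 it called 4 of the 10 and 12% of genes, and without JZL184 libraries 1 and 3 it called 5, Mgll, Abhd6, Abhd12, Dagla and Gpr55, and 19.4%, so the share of all genes rose as well.

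**Figure D4:**
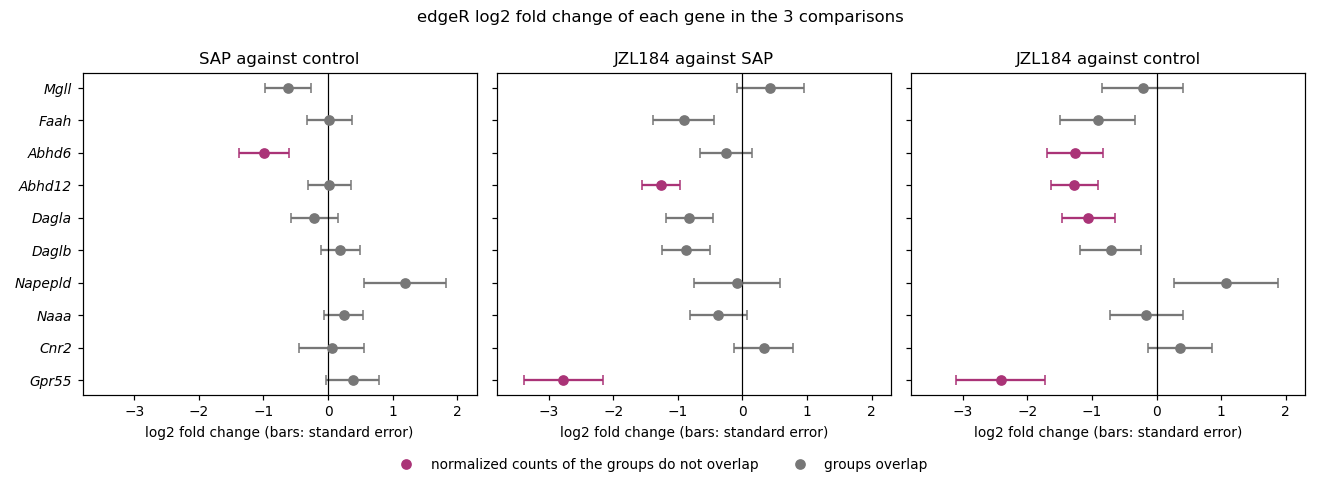
Log2 fold change by edgeR (horizontal axis) with its standard error (bars) for the 10 genes in the 3 comparisons, purple where groups had no overlap in normalized counts. Gpr55 lies farthest from 0 in both comparisons with JZL184, at -2.77 and -2.42.

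**Figure D5:**
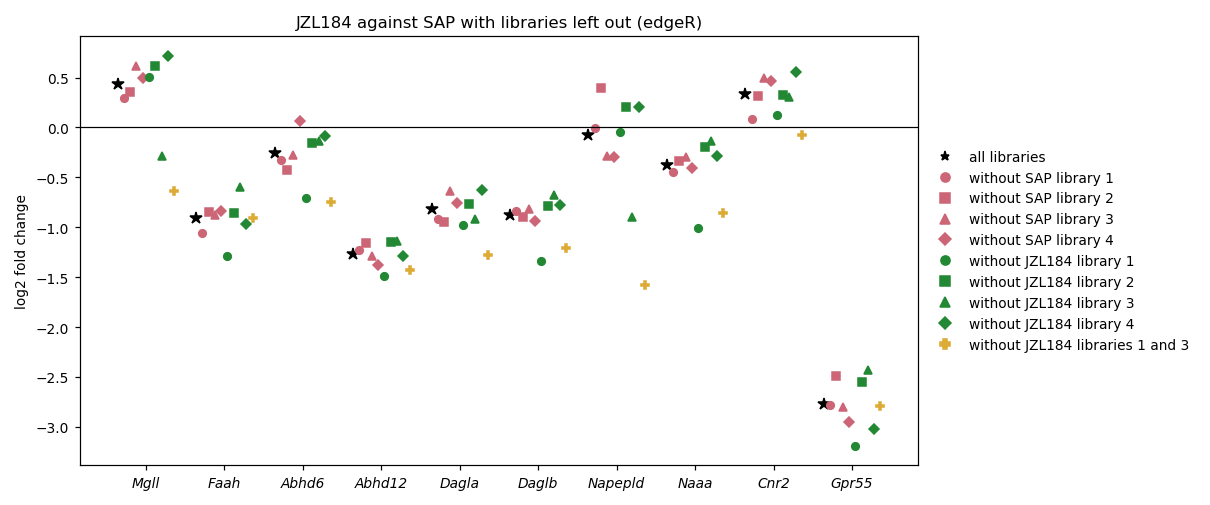
Log2 fold change by edgeR in JZL184 against SAP (vertical axis) for each of the 10 genes with all libraries (star), with each library left out in turn, and without JZL184 libraries 1 and 3. Gpr55 stays between -3.19 and -2.43 and Abhd12 between -1.49 and -1.14 in these fits, while Mgll, Abhd6, Napepld and Cnr2 fall on both sides of 0.

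Cell type markers were compared between the groups as well. In SAP against control the log2 fold change was positive in 7 of 7 macrophage and 6 of 6 neutrophil markers, with medians of 1.55 and 3.64, and negative in 7 of 9 epithelial markers. In JZL184 against SAP it was negative in 6 of 6 fibroblast and 8 of 8 smooth muscle markers, with medians of -1.39 and -0.57, and positive in 7 of 8 B cell and 8 of 8 enteric neuron markers. None of these markers was called by edgeR in those comparisons. The summed FPKM of the smooth muscle markers was 381 to 2132 in JZL184 and 873 to 2041 in SAP, so these groups overlapped. Against control, edgeR called 2 macrophage markers higher in JZL184, Cd163 (log2 fold change 2.99, adjusted p = 0.0398) and Mrc1 (2.34, adjusted p = 0.0454). It called Col1a1 (-2.49, adjusted p = 0.0462), a fibroblast collagen, lower. Both lists went both ways in that comparison, with 5 of 7 macrophage markers higher and 2 lower, and 2 of 6 fibroblast markers higher and 4 lower. The summed FPKM of the epithelial markers was 18455 to 20196 in control, 7603 to 15270 in SAP and 5210 to 15752 in JZL184. The controls were thus above all others. They were narrowly so for the exocrine pancreas markers too, at 10.83 to 12.17 against 4.88 to 10.76 in SAP and 4.19 to 9.32 in JZL184. The summed FPKM of the fibroblast markers was 31.0 to 61.1 in the JZL184 libraries, 62.6 to 147 in SAP and 62.0 to 90.7 in control, so the JZL184 libraries were below the others, as for Abhd12 and Gpr55. The summed FPKM of the T cell markers was 98.1 to 126 in JZL184, 51.9 to 157 in SAP and 138 to 160 in control. For these the JZL184 libraries overlapped SAP but were below control. The macrophage sums were 14.9 to 45.8 in JZL184, 22.2 to 46.2 in SAP and 12.8 to 15.9 in control, so JZL184 overlapped both. The part of the cell types in the results was not tested.

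Among themselves, Abhd12 and Gpr55 had the most similar pattern of the 10, with a Pearson r of 0.96 of log2(FPKM + 1) over 10 samples, followed by Abhd12 and Daglb at 0.92, while Mgll and Faah had -0.28. These values describe 10 samples that share library, depth and group. Among 11092 genes with a mean FPKM of at least 1, those closest to Gpr55 were Kptn (0.98), Ttc5 (0.97) and Farsb (0.97), and those closest to Abhd12 were Sqor (0.99), Mpi (0.99) and Vps4a (0.98). For Mgll they were Sytl1 (0.96), Wbp1 (0.94) and Emid1 (0.94), for Abhd6 Coq2 (0.96), Tedc1 (0.95) and Haus4 (0.95), and for Daglb Gmppb (0.98), Wdr92 (0.97) and Mtm1 (0.97). Faah was closest to Adck5 (0.98), Chp2 (0.96) and Lap3 (0.96), and Naaa to Gnpda1 (0.95), Srsf6 (0.95) and Ccdc69 (0.94). Dagla, Napepld and Cnr2 had a mean FPKM below 1 and were left out.

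Beyond the 10 genes, 44 genes were listed for further routes of synthesis, oxygenation, reception and binding of these lipids, and 43 were found. For these, edgeR called 0 of the 37 tested in SAP against control (0% of all genes), of which 12 were higher and 25 lower, with a median log2 fold change of -0.30. Against SAP it called 0 of 34 in JZL184 (0% of all genes), of which 16 were higher and 18 lower, with a median of -0.06. In JZL184 against control it called 2 of 37, both lower, where 2.16% of all genes were called, with 15 higher and 22 lower and a median of -0.42. At an unadjusted p below 0.05 stood 5 of 37, 6 of 34 and 8 of 37 genes in the 3 comparisons, where the shares of all genes were 9.09%, 21.3% and 26.3%.

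The 2 genes called were Trpv2, which was also called in 13 of 18 alternatives, and Plaat3, called in 10 of 18. Trpv2, a cation channel that cannabinoids can open, was at 5.09 ± 0.894 FPKM (SD, n = 2) in control, 3.38 ± 2.18 (n = 4) in the SAP group and 1.44 ± 0.419 (n = 4) in the JZL184 group. Its log2 fold change was -1.86 (SE 0.34, adjusted p = 0.0372) in JZL184 against control by edgeR. Plaat3, a phospholipase A and acyltransferase that can act in N-acylethanolamine synthesis, was at 403 ± 49.1 FPKM in control, 165 ± 67.0 in SAP and 159 ± 31.1 in JZL184. Its log2 fold change was -1.37 (SE 0.28, adjusted p = 0.0497) in JZL184 against control and -1.42 (adjusted p = 0.459) in SAP against control. Both calls were lost with all 3 groups in 1 edgeR fit, with adjusted p of 0.0848 for Trpv2 and 0.0890 for Plaat3, and 0 of the 37 were called when JZL184 library 2, JZL184 library 4 or either control sample was left out.

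The other genes named here were among the smallest p of a comparison and were not called in the pairwise edgeR fits, although some were called in other fits. Plaat5, a related N-acyltransferase, had 14.7 ± 3.30 FPKM in control, 5.65 ± 1.06 in SAP and 5.12 ± 1.18 in JZL184, and a log2 fold change of -1.56 in both comparisons with control (adjusted p = 0.403 in SAP and 0.0571 in JZL184). It was called in JZL184 against control in 11 of 18 alternatives, among them the fit of all 3 groups, and in SAP against control in 2 of 18, both with DESeq2. Fabp3, a fatty acid binding protein, was at 2.94 ± 0.0389, 1.80 ± 0.609 and 0.673 ± 0.301 FPKM, and its log2 fold change was -2.16 (adjusted p = 0.0631) in JZL184 against control and -1.27 (adjusted p = 0.190) against SAP. It was called in JZL184 against control in 8 of 18 alternatives. Fabp5, which can carry anandamide in cells, had a log2 fold change of 1.08 (adjusted p = 0.197) in JZL184 against SAP. Of the lipoxygenases, Alox15 was at 1.36 (adjusted p = 0.129) and Alox5 at -1.04 (adjusted p = 0.190) in JZL184 against SAP, and Alox12 at -1.49 (adjusted p = 0.459) in SAP against control. DESeq2 called Alox15 in JZL184 against SAP (adjusted p = 0.0352).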

How the data were processed

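Per the methods, the authors trimmed the reads and aligned them to mRatBN7.2 with HISAT2. The authors counted uniquely aligned reads per gene and deposited these read counts without normalization. The deposited FPKM values, which the authors calculated from them, are normalized for gene length and library size and have 2 decimals. Which tool counted the reads, and on which annotation, is not given in the sources used here.

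Groups follow the treatment labels. Control libraries 1 and 2 were summed (counts) or averaged (FPKM). Pairs of groups were compared on all genes by quasi-likelihood in edgeR 4.0.16 (R 4.3.3, TMM, filterByExpr with a minimum count of 10), and a call needed an adjusted p (Benjamini-Hochberg) under 0.05 and a change by more than 2 times, either up or down. P-values measure the spread between libraries, which the labels number but do not tie to named animals. Alternatives were DESeq2 1.42.0, voom with sample weights in limma 3.58.1, DESeq2 size factors, no filter, 1 fit of all groups, gene length offsets (lowess span 0.3), the replicate number as a block, separate control libraries, and leaving out libraries. Leaving out JZL184 libraries 1 and 3 together was added after the data were seen. The edgeR test was also run on simulated counts with planted changes, and how many of these it recovered is not given here. Tables and plots used Python 3.11.15.

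The members and lists were chosen with earlier results of these data known. Named are the 10 genes, Cnr1, wider-list genes called or among the 4 smallest p per comparison, the 3 genes closest in pattern to each gene, and genes said to be picked later. Splicing was not analysed here.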

Additional observations from a re-analysis of the deposited data

Results flagged for a closer look

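Of 20 sets of 4 libraries, SAP or JZL184 for each of the 10 genes, 3 had a highest FPKM that stood far from the rest. Chance marks about 1 in 20 where sets are independent and values normally distributed. All 3 were JZL184 library 1, and the sets shared their libraries, so the 3 were not independent and cannot be set against that rate. Abhd6 was at 27.33 FPKM there, with the gap to the next library at 0.868 of the whole range. Daglb was at 3.07 FPKM (0.869 of the range) and Naaa at 14.45 FPKM (0.831 of the range). This library also had low Fabp6 and high Gata4, and the part of these in the 3 values was not tested.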

How the results depend on the processing

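Leaving out JZL184 library 1 raised the number of the 10 genes called in JZL184 against SAP from 0 to 3. Of all genes, 4.21% were called there, and over single libraries left out the number of the 10 ranged from 0 to 3. In JZL184 against control it ranged from 0 to 4 over single JZL184 libraries left out. The 4 were called without JZL184 library 1 (12% of all genes), and 1 without JZL184 library 3 (860 genes in all). Against SAP, DESeq2 called 2 in the JZL184 group (6.98% of all genes), limma-voom 2 (4.57%) and the fit of all groups 1 (1.25%). In JZL184 against control 2 were called by DESeq2 (11.7% of all genes), 4 by limma-voom (18.3%) and 1 without a filter (929 genes in all). With separate control libraries 3 were called by edgeR (18.1%) and 4 by DESeq2 (3498 genes in all). Without JZL184 libraries 1 and 3, 5 were called (19.4%). For SAP against control 1 was called by DESeq2 with separate control libraries, and 0 in every other alternative run.

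The replicate numbers gave no sign of pairing, as the deviations of same-numbered SAP and JZL184 libraries correlated at 0.13, -0.48, -0.0024 and -0.12. Those of differently numbered SAP and JZL184 libraries ranged from -0.39 to 0.45, and so few values cannot exclude pairing. With the replicate block, fitted on separate control libraries, 2 of the 10 were called in JZL184 against control, and 1 with the block and length offsets, against 3 on the same libraries without the block, and 0 in the other comparisons. All genes called there with the block were 1488, or 1177 with offsets, against 2800 without it.

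Counts over all genes moved more. For SAP against control 0 genes became 203 (DESeq2), 14 (limma-voom), 14 (no filter), 4 (all groups in 1 fit), 74 (without SAP libraries 1 and 2), and 33 (edgeR) or 1469 (DESeq2) with separate controls. For JZL184 against SAP 0 became 1283 (DESeq2), 699 (limma-voom), 27 (no filter), 207 (all groups), 55 (length offsets), 655 (without JZL184 library 1) and 7 (without JZL184 libraries 1 and 3). In JZL184 against control 343 became 1956 (DESeq2), 2906 (limma-voom), 929 (no filter), 2800 (edgeR) or 3498 (DESeq2) with separate controls, 2967 (without JZL184 libraries 1 and 3), and 0 to 1867 over single samples left out, with 0 or 1 when a control sample was left out, 25 without JZL184 library 2, 860 without JZL184 library 3 and 1867 without JZL184 library 1. Of the wider lists, 0 to 12 genes were called in this comparison over the alternatives, against 2.

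Log2 fold changes changed sign as follows, none of them in a gene called in the pairwise edgeR fits of all libraries, and the cause was not tested. Mgll in JZL184 against control changed sign in 2 of 18 alternatives and was called in 1 other. For SAP against control Faah was at -0.021 with all groups in 1 fit, -0.21 with length offsets, -0.13 with the block, -0.50 with both, and -0.067 (edgeR) and -0.074 (DESeq2) with separate controls. Abhd12 was at -0.029 with all groups in 1 fit, at -0.074 (edgeR) and -0.081 (DESeq2) with separate controls, and at -0.19 without SAP libraries 1 and 2, where Dagla was at 0.10 and Gpr55 at -0.011. Daglb was at -0.067 and Cnr2 at -0.093 with length offsets, Cnr2 at -0.14 with the block, and Daglb at -0.17 and Cnr2 at -0.42 with both. Over single samples left out, Faah ranged from -0.27 to 0.38, Abhd12 from -0.29 to 0.42, Daglb from -0.030 to 0.44 and Cnr2 from -0.12 to 0.31.

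For JZL184 against SAP, limma-voom gave -0.37 for Mgll and -0.0046 for Cnr2, and length offsets 0.10 for Napepld. Without SAP libraries 1 and 2 Napepld was at 0.85, Cnr2 at -0.051 and Cnr1 at 0.30, and without JZL184 libraries 1 and 3 Mgll was at -0.63 and Cnr2 at -0.0745. Over single libraries left out, Mgll ranged from -0.28 to 0.72, Abhd6 from -0.70 to 0.065 and Napepld from -0.89 to 0.39. In JZL184 against control, limma-voom gave -0.021 for Cnr2 and length offsets 0.015 for Naaa, and without JZL184 libraries 1 and 3 Napepld was at -0.40 and Cnr2 at -0.042. Over single samples left out, Mgll ranged from -0.92 to 0.0925 and Naaa from -0.81 to 0.079. Where 1 sample was left in the control group, it was assumed to vary like the other libraries. The lowest reads in a library were 11 for Gpr55, 24 for Cnr2 and 27 for Napepld.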
